A study of Homo sapiens with 4 samples.

Results

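ZIC1, ZIC2, ZIC4, ZIC5, OTX1 and OTX2 were 6 of the 62218 genes in the annotation, and 46 of its 242542 matched transcripts belonged to them. They were taken by their symbols, and the value of a gene was the number of alignments counted on its isoform with the largest mean count. The libraries came from H1, an established line of human embryonic stem cells (hESCs), wild type in both groups. The naïve hESCs had been derived from H1 primed hESCs and were kept under low oxygen on Matrigel with reduced growth factors, in the FINE condition, a medium that held dasatinib, AZD5438, SB590885, PD0325901, Y-27632, LIF, Activin A and bFGF. The primed hESCs were grown on Matrigel in mTeSR1. Each state was sequenced as 2 Nanopore cDNA libraries. Since each state had its own medium and oxygen level, state and culture cannot be told apart, and both states go back to 1 cell line. The labels name no separate cultures for the libraries of a state, so p-values measure the spread between these libraries, which may be technical.

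ZIC proteins are zinc finger transcription factors related to the GLI effectors of Hedgehog signalling. Their genes lie in divergent pairs, ZIC1 beside ZIC4 and ZIC2 beside ZIC5, and they are known from the neural plate, the dorsal neural tube and the cerebellum. OTX1 and OTX2 are homeodomain proteins of the bicoid class that pattern the forebrain and midbrain. OTX2 and ZIC2 are also known from pluripotent epiblast cells on their way out of the naïve state. The comparison asked how the levels and isoforms of these genes differed between naïve and primed hESCs.

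The start regions of ZIC2, ZIC5 and OTX2 are shown because their changes rest on the most counts, and that of ZIC1 because its counts were higher in naïve hESCs. Each is a RefSeq window on GRCh38.p14 with 250 bases before and 50 bases after the start of the gene, printed 5′ to 3′ on the strand of the gene. Windows were found for all 6 members, and for each member only the window nearest the start of 1 chosen isoform was searched. ZIC4 had 4 windows, ZIC5 had 3 and OTX2 had 2. Capitals mark CCNGCTG, a core of the ZIC binding sequence, TAATCC, the core bound by OTX proteins, and CCAAT, the box bound by NF-Y, each searched on both strands (on the opposite strand CCAAT reads ATTGG).
ZIC2, chr13:99981534-99981833, plus strand: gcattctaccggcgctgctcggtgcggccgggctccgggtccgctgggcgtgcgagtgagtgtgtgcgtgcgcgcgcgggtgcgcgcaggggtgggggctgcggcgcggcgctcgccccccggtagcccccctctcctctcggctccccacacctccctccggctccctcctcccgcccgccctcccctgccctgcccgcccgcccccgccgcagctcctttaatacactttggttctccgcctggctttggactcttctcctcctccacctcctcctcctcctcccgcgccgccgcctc
ZIC5, chr13:99971718-99972017, minus strand: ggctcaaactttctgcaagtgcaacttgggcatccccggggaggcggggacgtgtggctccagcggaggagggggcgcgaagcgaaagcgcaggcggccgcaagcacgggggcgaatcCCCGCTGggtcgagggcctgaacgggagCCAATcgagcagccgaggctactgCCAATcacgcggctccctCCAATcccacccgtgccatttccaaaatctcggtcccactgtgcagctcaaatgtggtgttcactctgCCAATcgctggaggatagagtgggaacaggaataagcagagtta
OTX2, chr14:56810430-56810729, minus strand: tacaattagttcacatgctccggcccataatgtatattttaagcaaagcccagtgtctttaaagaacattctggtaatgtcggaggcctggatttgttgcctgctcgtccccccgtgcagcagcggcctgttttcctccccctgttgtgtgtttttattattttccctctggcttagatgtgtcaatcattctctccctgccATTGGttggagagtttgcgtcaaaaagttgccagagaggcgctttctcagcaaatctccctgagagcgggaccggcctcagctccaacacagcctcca
ZIC1, chr3:147409115-147409414, plus strand: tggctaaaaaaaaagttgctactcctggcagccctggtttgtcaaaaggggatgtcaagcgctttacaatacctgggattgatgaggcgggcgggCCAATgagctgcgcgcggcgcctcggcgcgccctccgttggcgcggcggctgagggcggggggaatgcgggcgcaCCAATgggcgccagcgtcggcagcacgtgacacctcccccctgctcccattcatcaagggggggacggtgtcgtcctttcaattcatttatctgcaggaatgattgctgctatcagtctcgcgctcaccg

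CCNGCTG was found in 1 of the 6 member windows, that of ZIC5, where it began at position -132 from the start and overlapped no CCAAT box. The same letters were present in 31.0% of all 34943 windows of the same length. TAATCC was found in none of the member windows and in 6.36% of all windows, and TATAAA, the TATA box, likewise in none and in 11.6%. CCAAT occurred 4 times in the ZIC5 window, 2 times each in those of ZIC1 and OTX1 and 1 time in that of OTX2, and was present in 34.6% of all windows. The windows of ZIC2 and OTX1 were rich in CpG dinucleotides, with 35 and 34 against a median of 14 over all windows. Those of ZIC1 and ZIC5 held 26 and 22, and those of ZIC4 and OTX2 held 10 and 9. The start on which the OTX1 window is centred lies 773 bases from the start of the isoform counted here. The ZIC1 window lies at the start of ZIC1-201, at 147409365, whereas the counted isoform ZIC1-202 starts at 147393422.

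The deposited counts summed to between 129276054 and 161548901 per library. Values in CPM are counts scaled to 1000000 of the gene-level library size after TMM normalization, on which 3 counts, the limit that a count of 0 allows, came to between 0.0979 and 0.130 CPM. Intervals given for counts cover counting error only and leave out the spread between libraries, and the reads carry no molecular identifiers. Over genes the libraries of a state differed beyond counting error, with a chi-square per degree of freedom of 15.73 in naïve and 9.145 in primed hESCs. The state labels were set beside marker genes. These lists were chosen with earlier results of these data known, so they are no independent check of the labels. All 8 naïve markers were lower in primed hESCs, with KLF17 turning to the opposite sign when library size replaced TMM (-0.41 against 0.23 on the log2 scale), and all 8 primed markers were higher. The naïve libraries also held RNA of trophoblast markers. Their 10 genes summed to 2108.6 and 2439.9 CPM in naïve and to 7.41 and 8.32 CPM in primed libraries, and 9 of the 10 were lower in primed hESCs. Most of the naïve sums came from CGA, at 1551.2 and 1865.7 CPM, and CGB5, at 405.5 and 400.7 CPM. The 7 amnion markers summed to 23.3 CPM in each naïve library and to 7.08 and 5.84 CPM in the primed libraries.

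ZIC2, ZIC5, OTX2 and OTX1 were higher in primed hESCs, and ZIC1 and ZIC4 were higher in naïve hESCs. In none of the 6 genes did the libraries of both states overlap. With 2 libraries per state this is a weak mark, and the share of all genes without overlap was not counted. Each gene was put through edgeR's quasi-likelihood test, with p-values adjusted by the method of Benjamini and Hochberg over 27632 genes, and all 6 members entered it. The SE given with a fold change is its size divided by the square root of the F statistic of that test. For genes with few counts it can understate the counting error. With DESeq2 the SE was 1.46 for ZIC5, 0.77 for ZIC2 and 1.24 for OTX1. Of all genes tested 70.0% were called, 37.4% as higher and 32.6% as lower in primed hESCs, so 6 called members of 6 is a share to be read against a background in which most genes were called. The all-gene median was 0.08 on the log2 scale. Fewer cells that express a gene and less of its RNA per cell cannot be told apart in bulk libraries.

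**Figure D1:**
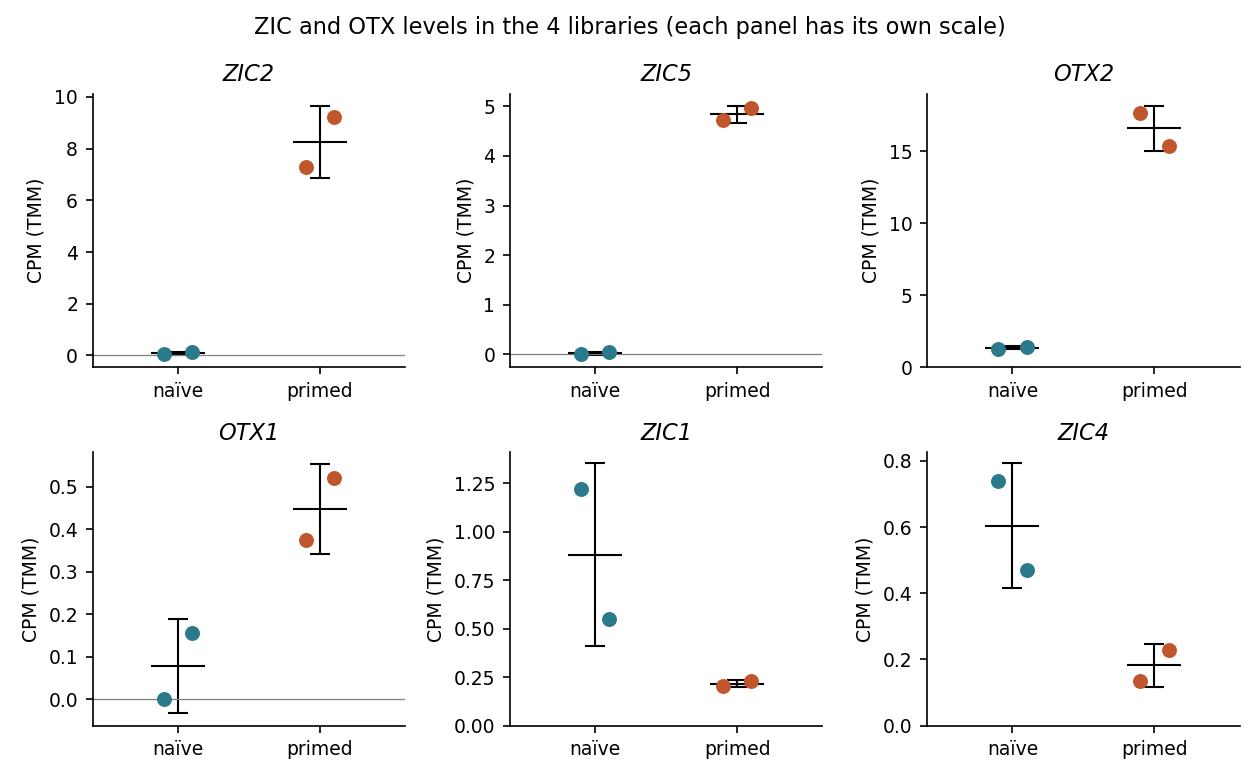
Level of each member in CPM (TMM-normalized, vertical axis, own scale in each panel) in the 2 naïve (blue) and 2 primed (orange) libraries, with the mean as a horizontal line and the SD as the error bar. The libraries of the 2 states do not overlap in any panel, which is a weak mark with 2 libraries per state. The share of all genes without overlap was not counted. The primed libraries are the higher ones for ZIC2, ZIC5, OTX2 and OTX1, and the naïve ones for ZIC1 and ZIC4.

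ZIC2 and ZIC5 are neighbours on chromosome 13 of GRCh38. ZIC2, mutations of which are a known cause of holoprosencephaly, lies on the plus strand from 99981784 to 99986765. ZIC5 lies on the minus strand from 99962964 to 99971767, and their starts are 10017 bases apart. The counted isoform of ZIC2, ZIC2-201, had 1 and 3 counts in naïve and 214 and 283 in primed libraries. Both naïve counts were at or under the limit of 3, and both primed libraries were far above it. Its level was 0.0806 ± 0.0525 CPM (SD, n = 2) in naïve and 8.26 ± 1.39 CPM (SD, n = 2) in primed hESCs. By edgeR's quasi-likelihood test the log2 fold change was 6.57 ± 0.40 (SE), with an adjusted p of 9.68e-19. With so few naïve counts the ratio itself is loosely set, at 100.4 with a 95% counting interval from 39.0 to 370.0.

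The only ZIC5 isoform, ZIC5-201, was counted 0 and 1 times in naïve hESCs and 139 and 152 times in primed hESCs. ZIC5 was therefore at the edge of detection in naïve hESCs, with 1 alignment in both libraries together. Its level was 0.0196 ± 0.0277 CPM (SD, n = 2) against 4.84 ± 0.167 CPM (SD, n = 2), a log2 fold change of 7.59 ± 0.54 (SE) with an adjusted p of 2.49e-16 by edgeR's quasi-likelihood test. The ratio was 235.2, with a counting interval from 41.9 to 9322.0. Without naïve replicate 2, which held the only naïve alignment, the fitted log2 fold change was 10.07, and without naïve replicate 1 it was 6.79. For ZIC2 the same 2 fits gave 7.43 and 6.08. The call was the same in all 4 fits.

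Other transcripts of the locus were higher in primed hESCs too. The non-coding transcript ENSG00000288060, annotated between ZIC5 and ZIC2 and 1750 bases from the span of ZIC2, had 0 and 1 counts in naïve and 18 and 26 in primed libraries, with an adjusted p of 8.13e-07 by edgeR's quasi-likelihood test. ENSG00000286757, which ends 5305 bases from ZIC5, had 18 and 10 counts against 215 and 266, a log2 fold change of 3.78 ± 0.29 (SE). LINC00554, on the far side of ZIC2, had 1 count in all. Alignments in the region of ZIC2 lay mostly over its last exon. Of the 497 primed alignments on ZIC2-201, 435 (87.5%, Wilson 95% interval 84.3% to 90.1%) touched ZIC2-204, an annotated transcript whose span, from 99985494 to 99985904, lies inside the last exon of ZIC2-201, from 99985323 to 99986765. The span of ZIC2-205, which ends 2 bases before that of ZIC2-204 and takes in the middle exon, was touched by 19 of them (3.82%, 2.46% to 5.89%). Most primed ZIC2 alignments thus did not reach the middle exon. Why they did not was not tested.

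OTX2 was higher in primed hESCs and was also counted in naïve hESCs. It lies on the minus strand of chromosome 14 from 56799905 to 56816693, and its 12 isoforms start at several places. Its counted isoform, OTX2-201, had 29 and 36 counts in naïve and 520 and 473 in primed libraries. Unlike ZIC2 and ZIC5, OTX2 was above the limit of 3 counts in each naïve library. Its level was 1.34 ± 0.109 CPM (SD, n = 2) in naïve and 16.6 ± 1.58 CPM (SD, n = 2) in primed hESCs. The log2 fold change was 3.62 ± 0.22 (SE), with an adjusted p of 7.14e-19 by edgeR's quasi-likelihood test, and the ratio was 12.3 (counting interval 9.60 to 16.1). Over all 13 alternative settings the fold change stayed between 3.52 and 4.26.

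Most OTX2 alignments touched several isoforms. OTX2-203, whose span begins 2120 bases in from the 3′ end of OTX2-209, still within the last exon of OTX2-201 (56799905 to 56802355), was touched by 96.8% of the primed alignments on OTX2-209 (Wilson interval 95.5% to 97.7%) and by 95.4% of the naïve ones (87.3% to 98.4%). OTX2-202 starts inside the gene, at 56805667, and was touched by 983 of 993 primed and 65 of 65 naïve alignments. Counts over whole spans therefore did not separate the start sites of OTX2, and these shares do not show how far an alignment extended. Across the 12 isoforms the counts ran from 504 to 520 in primed replicate 1 and from 28 to 29 in naïve replicate 1. OTX2-AS1, on the opposite strand, overlaps 3511 bases of the OTX2 gene span. It had 28 and 43 counts in naïve and 96 and 146 in primed libraries, a log2 fold change of 1.46 ± 0.27 (SE) with an adjusted p of 8.39e-06 by edgeR's quasi-likelihood test. The counted OTX2-201 does not reach the shared stretch, and OTX2-210, the only isoform that reaches it, had the same counts as OTX2-211, which does not (29, 36, 519 and 472). The OTX2 pseudogenes OTX2P1 and OTX2P2, looked up after the values of OTX2 were seen, had no count in any library.

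OTX1 had the smallest fold change of the 4 genes that were higher in primed hESCs, on the fewest counts. It lies on the plus strand of chromosome 2 from 63050057 to 63057836. OTX1-202 had 0 and 4 counts in naïve and 11 and 16 in primed libraries. Its level was 0.0785 ± 0.111 CPM (SD, n = 2) in naïve and 0.448 ± 0.105 CPM (SD, n = 2) in primed hESCs. The log2 fold change was 2.39 ± 0.69 (SE), with an adjusted p of 0.00215 by edgeR's quasi-likelihood test, and the ratio of counts was 5.46 (interval 1.90 to 21.5). The call was lost in the DESeq2 fit, with an adjusted p of 0.0789, and without naïve replicate 1, with 0.0536 and a log2 fold change of 1.49. Without naïve replicate 2 the fitted value was 6.65, and over all alternatives the adjusted p ranged from 0.000117 to 0.0789.

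OTX1 had 4 annotated neighbours within 50 kb. Of these 3 were tested and were higher in primed hESCs, and the pseudogene ENSG00000270437, 25172 bases away, had no count in any library. EHBP1, which codes for a protein of endocytic trafficking, ends 3570 bases before OTX1 and had 283 and 325 counts in naïve and 750 and 879 in primed libraries. Its log2 fold change was 1.11 ± 0.16 (SE). EHBP1-AS1 had 6 and 24 counts against 227 and 311, and ENSG00000286480, 49043 bases away on the other side, had 4 and 4 against 83 and 118. In all, 15 genes other than members overlapped a member or lay within 50 kb of one. Of these 6 were tested, all 6 were higher in primed hESCs, against 37.4% of all genes tested, and 5 had no count in any library. The gene spans of EHBP1 and EHBP1-AS1 overlap and counts ignore strand, so these neighbours may share alignments.

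ZIC1 and ZIC4 went the other way. They lie on chromosome 3, ZIC1 on the plus strand from 147393422 to 147510293 and ZIC4 on the minus strand from 147386046 to 147406809, and their annotated spans overlap by 13388 bases. ZIC1 had 28 and 14 counts in naïve and 6 and 7 in primed libraries. Its level was 0.882 ± 0.471 CPM (SD, n = 2) in naïve and 0.216 ± 0.0173 CPM (SD, n = 2) in primed hESCs. The log2 fold change was -1.99 ± 0.49 (SE), with an adjusted p of 0.000396 by edgeR's quasi-likelihood test, and naïve hESCs had 4.0 times the primed level (counting interval 2.10 to 8.12). ZIC1 was much higher in naïve replicate 1 than in naïve replicate 2. Without naïve replicate 1 the log2 fold change was -1.33, with an adjusted p of 0.0368, within a range from 4.93e-06 to 0.0368 over the alternatives other than ZIC1-201 alone.

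ZIC4 had 17 and 12 counts in naïve and 4 and 7 in primed libraries. Its level was 0.604 ± 0.189 CPM (SD, n = 2) in naïve and 0.182 ± 0.0654 CPM (SD, n = 2) in primed hESCs. By edgeR's quasi-likelihood test its log2 fold change was -1.69 ± 0.52 (SE), with an adjusted p of 0.00380, and the ratio of naïve to primed counts was 3.26 (1.58 to 7.24). The call was lost with library size in place of TMM (-1.05, adjusted p = 0.0695), in the DESeq2 fit (-1.77, adjusted p = 0.0761) and without primed replicate 1 (-1.37, adjusted p = 0.0670), while the adjusted p over all alternatives went from 0.00137 to 0.0761. ZIC4 and OTX1 were the members whose call depended on these settings.

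**Figure D2:**
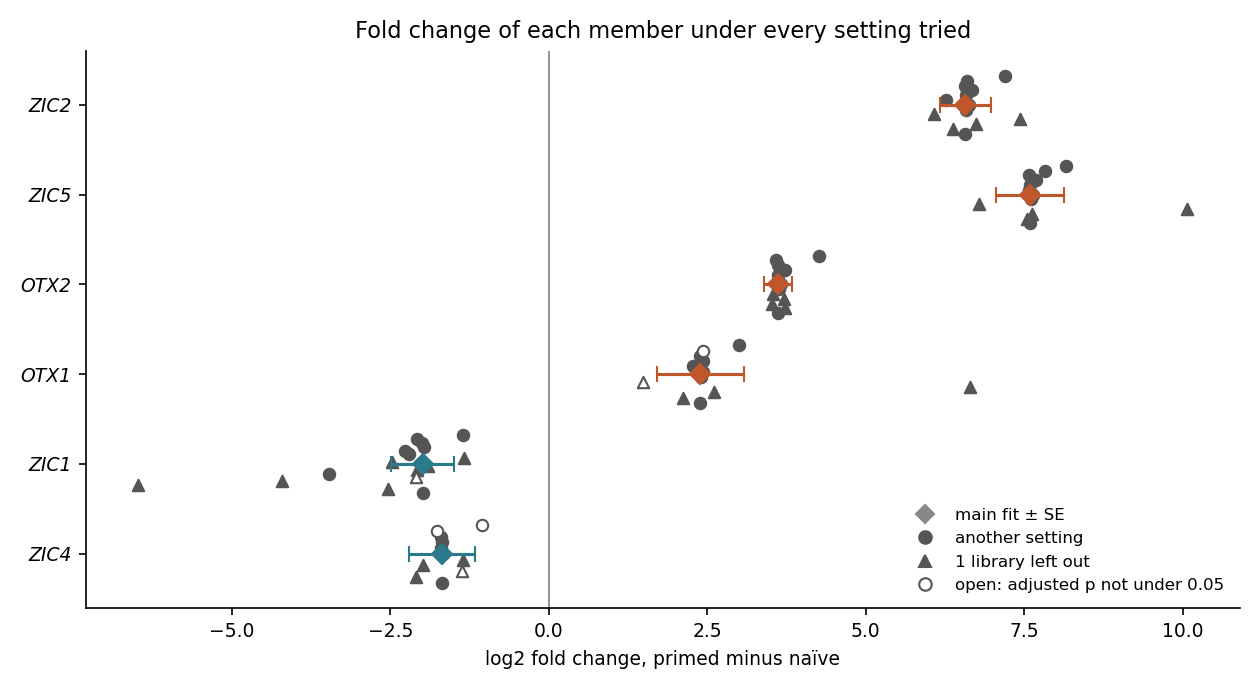
Log2 fold change of each member, primed minus naïve, in the main fit (diamond, with its SE) and under every alternative setting (circles) or with 1 library left out (triangles). Open symbols have an adjusted p that is not under 0.05. They are found for OTX1 and ZIC4, and once for ZIC1, when it was counted over ZIC1-201 alone without naïve replicate 1, and no value of a member crosses 0.

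The counted isoform of ZIC1, ZIC1-202, is an annotated transcript with 567 exonic bases in a span of 114565 bases. The full coding isoform, ZIC1-201, lies inside that span from 147409365 to 147416719 and begins 2556 bases past the end of ZIC4. ZIC1-201 had 16 and 4 counts in naïve and 2 and 0 in primed libraries, so that 16 of the 20 naïve alignments were in naïve replicate 1 (0.694 against 0.157 CPM). Of the ZIC1-202 alignments, 20 of 42 in naïve (47.6%, Wilson interval 33.4% to 62.3%) and 2 of 13 in primed libraries (15.4%, 4.33% to 42.2%) touched ZIC1-201. Counted over ZIC1-201 alone, a setting added after the data were seen, in which the minimum of 10 counts was set aside because 1 library alone reached it, ZIC1 was again lower in primed hESCs, with a log2 fold change of -3.47 and an adjusted p of 0.000394 by edgeR's quasi-likelihood test. The ratio of naïve to primed counts there was 12.4, with a counting interval from 3.01 to 109.2. Without naïve replicate 1 the call was lost, with a log2 fold change of -2.10, an adjusted p of 0.0911 by the same test and a ratio of 4.71 (0.675 to 52.1) on 4 against 2 counts. Over the fits of ZIC1-201 with 1 library left out the adjusted p ranged from 4.32e-07 to 0.0911.

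The other ZIC1 alignments, 12 and 10 in naïve and 4 and 7 in primed libraries, missed ZIC1-201. Most ZIC4 alignments lay in the same region. Between the spans of ZIC4-216 and ZIC4-203 is a stretch of 2918 bases, from 147392934 to 147395851, that takes in the annotated start of ZIC1-202. At least 12 of 17 and 10 of 12 naïve ZIC4 alignments, and at least 4 of 4 in primed replicate 1, touched ZIC4 in that stretch. In primed replicate 2 at least 3 of 7 did. An alignment that reaches past the annotated start of ZIC1-202, at 147393422, counts for both genes whatever its strand, so ZIC4 and ZIC1 alignments cannot be told apart there. ZIC1-201 lies outside ZIC4. Of the neighbours, ZIC4-AS1 had no count in any library and ENSG00000243620 had 5 and 4 counts in naïve and 8 and 15 in primed libraries.

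**Figure D3:**
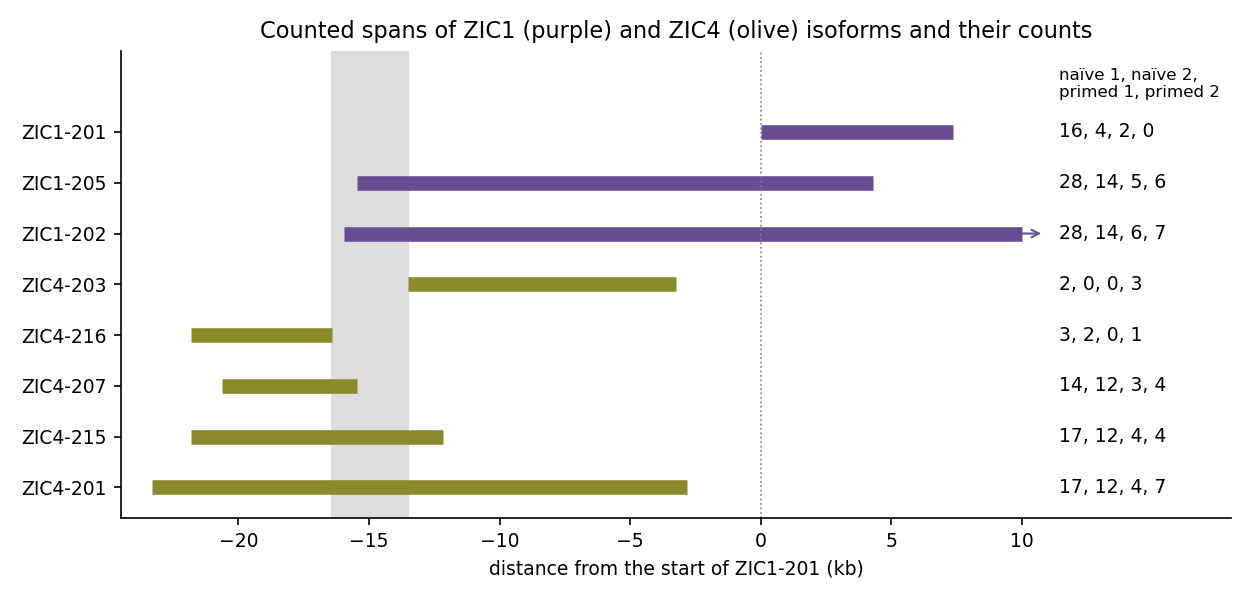
Counted spans of 3 ZIC1 isoforms (purple) and 5 ZIC4 isoforms (olive) by distance from the start of ZIC1-201 in kb, with the counts of each in naïve replicates 1 and 2 and primed replicates 1 and 2 at the right. The arrow marks a span that goes on past the axis, and the grey band is the stretch of 2918 bases that held at least 12 and 10 naïve ZIC4 alignments and that ZIC1-202 and ZIC1-205 also reach into.

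Markers of other cell types differed between the states as well. Of the trophoblast markers 9 of 10, and of the amnion markers 6 of 7, were lower in primed hESCs, and the other 1 of each list was not called. The neural crest list is named for cells to whose induction ZIC1 is known to contribute. It had 3 of its 4 tested markers higher and 1 lower in primed hESCs. Its summed levels were 2.56 and 2.16 CPM in naïve and 3.36 and 3.20 CPM in primed libraries. With DESeq2 1 neural crest marker was called higher instead of 3. The neuroectoderm markers summed to 0.781 and 0.667 CPM in naïve and to 3.57 and 3.33 CPM in primed libraries, and both tested markers were higher in primed hESCs, of which 1 was called with DESeq2. Among the untested ones SIX3 had no count in any library and SOX1 had 1. Of 4 tested primitive endoderm markers 2 were higher and 1 was lower, and of 4 tested markers of mesoderm and definitive endoderm 2 were higher, with summed levels of at most 7.32 and 7.71 CPM in a library. The part of other cell types in the counts of the members was not tested.

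No change of isoform usage was called in the members. Of their 46 isoforms, 24 had at least 10 counts in at least 2 libraries beside another such isoform of the gene. These were 12 of OTX2, 8 of ZIC4 and 2 each of ZIC1 and ZIC2. The test was edgeR's diffSpliceDGE on a quasi-likelihood fit, with thresholds of 0.05 on the adjusted p and 0.1 on the change in isoform fraction (dIF). None of the 24 was called and none had an unadjusted p under 0.05, against 0.556% of all 159577 isoforms called. At that share hardly any call would fall among 24 isoforms. The number of member isoforms called was also 0 in each alternative run for isoform usage. The dIF farthest from 0 was that of ZIC4-207, whose fraction went from 30.5% in naïve to 24.5% in primed hESCs on counts of 14, 12, 3 and 4. An alignment counted for every span it overlapped, so isoforms of a gene shared many alignments. In OTX2 10 of the 12 isoforms shared all their counts with another one, and in ZIC4 11 of the 17 did. All 42 naïve alignments on ZIC1-202 touched ZIC1-205. A switch between such isoforms would not be seen in these counts, so the lack of calls does not show that usage was unchanged.

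Levels of different genes were compared per kilobase of exon. Counts of long cDNA reads need not grow with transcript length, so the size of the steps depends on this choice. In CPM the primed order of the first 3 genes was the same, with 16.6 for OTX2, 8.26 for ZIC2 and 4.84 for ZIC5. In primed hESCs OTX2 was highest, at 5.60 ± 0.536 CPM per kb (SD, n = 2), followed by ZIC2 at 2.79 ± 0.468 and ZIC5 at 1.08 ± 0.0371 CPM per kb. Each of these steps was larger than the spread between the libraries. OTX1, at 0.157 ± 0.0367, and ZIC4, at 0.0454 ± 0.0163 CPM per kb, were lower still. In naïve hESCs OTX2 led as well, at 0.452 ± 0.0369 CPM per kb, and ZIC4 followed at 0.151 ± 0.0470. Most naïve ZIC4 alignments touched the stretch where ZIC4 and ZIC1 cannot be told apart, so the ZIC4 level may hold ZIC1 alignments. ZIC2, at 0.0272 ± 0.0177, and OTX1, at 0.0274 ± 0.0388 CPM per kb, did not differ beyond their spread. For ZIC1 the exonic length of ZIC1-202 does not match the counted span, and ZIC1-201 gave 0.0809 ± 0.0722 CPM per kb in naïve and 0.00646 ± 0.00914 in primed hESCs. Its naïve level did not differ beyond its spread from that of ZIC4.

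Relatives of the members were called in both directions. In the list of 14 genes related to ZIC or OTX, 10 were tested, of which 6 were higher and 2 were lower in primed hESCs, with a median log2 fold change of 1.17. GLI3 and GLI2, transcription factors that respond to Hedgehog signals, rose by 5.62 ± 0.33 and 4.78 ± 0.30 (SE). On the OTX side DMBX1, a paired-type homeobox gene of the midbrain, had 100 and 138 counts in naïve and 1 and 1 in primed libraries, and was called lower. CRX, the OTX relative of photoreceptors, was not called, with 22 and 16 counts in naïve and 21 and 23 in primed libraries, and its sign turned when library size replaced TMM (-0.10 against 0.54).

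The regulators of pluripotency gave the setting. Of the 27 genes listed for the formative and primed epiblast, 25 were tested, 21 were higher and 1, LIN28B, was lower in primed hESCs, and the median log2 fold change was 2.91. The 4 with the largest fitted changes were THY1, SFRP2, ETV1 and CYTL1. They had no count in naïve hESCs, and against a floor of 3 counts over both naïve libraries they were at least 1058.1-fold, 854.4-fold, 192.9-fold and 58.2-fold higher in primed hESCs. Of the 20 naïve regulators 19 were tested, 16 were lower and 2, ESRRB and PRDM14, were higher in primed hESCs, with a median of -3.69. KHDC1L, for one, had 27211 and 26908 counts in naïve and 4 and 2 in primed libraries. KHDC3L, a maternal effect gene, had 1134 and 1050 counts in naïve and none in primed libraries. The 8 regulators shared by both states had 6 higher, 1 lower (NANOG) and 1 not called (POU5F1), with a median of 1.14. OTX2, ZIC2 and ZIC5 lay above the median of the formative and primed list. OTX1, at 2.39, lay below it, and ZIC1 and ZIC4 went the other way.

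**Figure D4:**
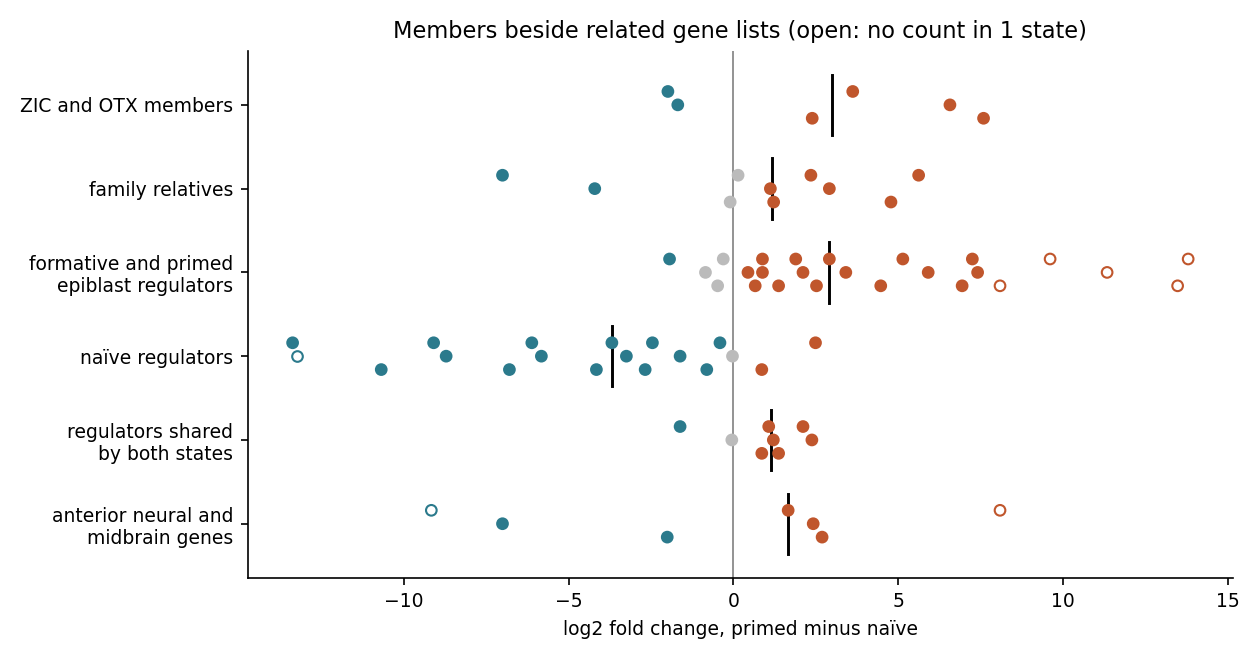
Log2 fold change, primed minus naïve, of the 6 members and of the tested genes of 5 lists (orange higher and blue lower in primed hESCs, grey not called), with the median of each row as a black line. Open circles are genes with no count in 1 state, whose fitted value is no bound. The lists of formative and primed and of naïve regulators have medians of 2.91 and -3.69.

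Genes of the anterior neural plate and midbrain, where ZIC and OTX factors act in the embryo, were mostly too low to test. Of 24 listed genes 7 were tested, 4 were higher and 3 were lower in primed hESCs, with a median log2 fold change of 1.66. NES, which codes for the intermediate filament nestin, had 41 and 54 counts in naïve and 376 and 381 in primed libraries. SOX3, a gene of the neural plate, had 0 and 0 against 29 and 46, at least 20.2-fold higher in primed hESCs. GBX2, which opposes OTX2 at the border of midbrain and hindbrain, had 29 and 17 counts in naïve and 8 and 6 in primed libraries, a log2 fold change of -2.01 ± 0.47 (SE) with an adjusted p of 0.000214 by edgeR's quasi-likelihood test. DLX5, a distal-less homeobox gene, had 56 and 73 against 0 and 0, at least 53.2-fold lower in primed hESCs. The list thus held called genes in both directions, and HESX1 and PAX6, early genes of the anterior neural plate and the eye, were among the higher ones.

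The genes with the most similar pattern across the libraries were sought among 15346 tested protein-coding genes, by the distance between the 4 centred log2 CPM values. For OTX2 they were WDR35, a gene of cilium transport, and KIT, a receptor tyrosine kinase, at distances of 0.0912 and 0.114. KIT had 9 and 10 counts in naïve and 165 and 154 in primed libraries. For ZIC2 they were NLGN1, a synaptic adhesion molecule, and TMEM45A, at 0.0542 and 0.113, and for ZIC5 TMEM45A and SATB1, a chromatin organizer, at 0.133 and 0.148. OTX1 was nearest to TMEM178A and CNPY1, ZIC1 to PNLDC1 and MYO7A, and ZIC4 to LY6G5C and KLRC4-KLRK1, at distances between 0.121 and 0.270. This likeness rests on 4 libraries in 2 states and is a description.

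Sequence similarity within the families was partial. By blastn, transcripts of the ZIC genes matched each other at between 77.3% and 84.2% identity over 430 to 1162 bases, with ZIC2 and ZIC5 the most alike (84.2% over 430 bases), and OTX1 and OTX2 at 70.1% over 431 bases. A read was counted at each place where it aligned, and how many alignments the loci shared in this way was not tested.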

How the data were processed

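The authors sequenced cDNA of H1 hESCs on Nanopore R9.4.1 flow cells, aligned the reads with minimap2 and counted alignments per transcript of Ensembl release 105 (GRCh38) with featureCounts 2.0.0. The deposited values are raw counts, not normalized, over whole spans with introns, without strand, for every transcript overlapped and at every place a read aligned. Such counts can be shared by overlapping genes and isoforms. Here, 242542 of 244825 transcripts were matched to GENCODE 44 for symbols, and 97.9% of these had the same span. Genes needed at least 10 counts in at least 2 libraries. Tests used edgeR 4.0.16 (TMM, quasi-likelihood, two-sided, Benjamini-Hochberg, 0.05) and diffSpliceDGE in R 4.3.3, with DESeq2 1.42.0 as an alternative, and were tested on simulated data. Total counts per library were between 129276054 and 161548901, and intervals are Wilson or exact 95% intervals. The members and the lists were chosen with earlier results of these data known. Named are the members, genes within 50 kb, the 2 genes most like each member and up to 4 called genes per list with the largest fold change, of which some are not reported here. ALPPL2 was not matched, and HESX1, LIN28B, ESRRB, PRDM14, NANOG, POU5F1, CRX, KLF17, GBX2, PAX6, SOX1 and SIX3 were named after their values were seen. Alternatives were other scalings, filters, isoform choices, the replicate number as a block and each library left out.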

Additional observations from a re-analysis of the deposited data

How the results depend on the processing

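Of 78 alternative values for the fold changes of the members, 72 kept the direction and the side of the threshold, 6 kept the direction but lost the call, and none changed sign. Requiring a log2 fold change beyond 1 reused the values of the main fit, so its values, which are among the 72, could not differ. Protein-coding isoforms only and isoforms that overlap no other gene kept the counted isoforms of ZIC2, ZIC5, OTX1 and OTX2. The former also kept that of ZIC4, and summing isoform counts left ZIC5 with its only isoform. In these fits the member counts stayed the same and only the other genes changed. Their values, also among the 72, could hardly differ. The 78 also hold the fits of ZIC1-201 added after the data were seen, and leave out settings in which a member was not tested. With library size in place of TMM the log2 fold change of ZIC4 was -1.05 (adjusted p = 0.0695), 1 member was called lower, and 15540 genes were called higher and 4503 lower in primed hESCs. That scaling moved the median of all genes from 0.08 to 0.72 and the share of calls that were higher from 53.4% to 77.5%, so relative to the median the members moved little. With DESeq2 ZIC4 was at -1.77 (0.0761), OTX1 at 2.43 (0.0789), and 1 member was called lower. Requiring at least 50 counts left out ZIC1, ZIC4 and OTX1, and isoforms that overlap no other gene left out ZIC1 and ZIC4, so that 0 members were called lower under either. The latter setting called 4965 genes higher and 4395 lower, protein-coding isoforms only 5845 and 5298, and a log2 fold change beyond 1 left 5120 lower. With 1 library left out, the lone library of a state being assumed to vary like the others, the fold change of ZIC4 ranged from -2.10 to -1.35 and that of OTX1 from 1.49 to 6.65, that of ZIC1 went from -2.47 to -1.33 (from -6.47 to -2.10 over ZIC1-201 alone, where the call was lost without naïve replicate 1, adjusted p = 0.0911), and between 1 and 2 members were called lower. The replicate numbers did not pair the libraries (the deviations of same-numbered libraries correlated at r = 0.0409 across 27632 genes, which are not independent). With the replicate block OTX2 was at 3.62, and 10472 genes were called higher and 9217 lower. No call of a member changed under the block. Depth limits ZIC4, OTX1 and the naïve levels of ZIC2 and ZIC5, which rest on few counts.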
